A study of Homo sapiens with 14 samples.

Results

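The NOTCH receptors NOTCH1 (ENSG00000148400), NOTCH2 and NOTCH3 and the NOTCH ligands DLL1, JAG1 and JAG2 were followed across the RNA-seq libraries of 2 human T cell acute lymphoblastic leukemia (T-ALL) lines. The 6 genes were selected by symbol. Each matched 1 row in all 6 deposited tables, giving 6 of 55075 gene rows. CUTLL1 and CEM cells, both established T-ALL lines grown in suspension, had been infected with retroviruses that carried a short hairpin RNA. The hairpin was shJMJD3 (against KDM6B, which encodes JMJD3), shUTX (against KDM6A, which encodes UTX) or the control shRenilla. All cells of the study therefore carried a retroviral hairpin, and no uninfected cells were measured. In CUTLL1 there were 3 shJMJD3, 2 shUTX and 3 shRenilla samples. In CEM there were 2 of each, which made 14 samples in all. The deposited tables hold 1 summed count column per hairpin and line, so a value below is 1 number without SD or n, and the spread between samples of a group was not measurable. Each group rests on 1 cell line and 1 hairpin label.

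NOTCH receptors are single-pass membrane proteins that are cleaved after binding a ligand of the DLL or JAG family on a neighboring cell. The released intracellular domain enters the nucleus, where it joins the DNA-binding protein RBPJ and a MAML co-activator at target genes such as HES1 and HES5. In developing T cells NOTCH1 directs commitment to the lineage, and activating changes of NOTCH1 are frequent in T-ALL. CUTLL1 is known for a translocation that joins part of NOTCH1 to the T cell receptor beta locus, and gene counts do not separate reads of the rearranged allele from those of the intact one. JMJD3 and UTX are histone H3 demethylases that erase the repressive lysine 27 mark deposited by Polycomb.

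Because both hairpin targets act on chromatin at promoters, the start-site sequences of the members whose level differed between the lines are shown here, 250 bases upstream of the gene start, 5′ to 3′, from RefSeq on GRCh38.p14. All are on the minus strand: NOTCH1 at chr9:136546049-136546298, NOTCH3 at chr19:15200996-15201245, JAG1 at chr20:10674000-10674249 and JAG2 at chr14:105168777-105169026. Capitals mark CpG dinucleotides.
NOTCH1: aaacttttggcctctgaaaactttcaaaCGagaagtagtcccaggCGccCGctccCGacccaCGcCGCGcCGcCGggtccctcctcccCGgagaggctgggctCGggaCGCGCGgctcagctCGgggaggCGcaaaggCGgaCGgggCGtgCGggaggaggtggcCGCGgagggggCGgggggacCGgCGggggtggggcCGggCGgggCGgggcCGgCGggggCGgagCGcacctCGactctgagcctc
NOTCH3: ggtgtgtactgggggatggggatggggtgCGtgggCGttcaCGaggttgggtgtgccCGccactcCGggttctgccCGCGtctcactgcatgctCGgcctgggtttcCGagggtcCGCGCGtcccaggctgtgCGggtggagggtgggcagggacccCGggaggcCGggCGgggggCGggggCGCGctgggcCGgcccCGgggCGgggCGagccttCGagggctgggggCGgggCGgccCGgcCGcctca
JAG1: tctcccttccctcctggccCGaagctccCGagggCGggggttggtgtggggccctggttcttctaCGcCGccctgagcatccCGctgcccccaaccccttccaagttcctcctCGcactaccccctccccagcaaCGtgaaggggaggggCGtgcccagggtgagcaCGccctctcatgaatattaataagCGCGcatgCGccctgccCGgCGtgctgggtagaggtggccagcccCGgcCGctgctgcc
JAG2: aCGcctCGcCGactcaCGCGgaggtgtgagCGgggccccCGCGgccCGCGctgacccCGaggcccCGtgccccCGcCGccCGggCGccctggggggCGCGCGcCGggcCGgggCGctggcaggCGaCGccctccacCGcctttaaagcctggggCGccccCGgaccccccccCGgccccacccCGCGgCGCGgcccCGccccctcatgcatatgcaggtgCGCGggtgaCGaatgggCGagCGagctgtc

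The promoters of 5 of the 6 members matched the RefSeq table, the other being that of NOTCH2 (chr1:120069663-120069912, minus strand). All 5 were richer in GC than the median of all 35116 promoters, which was 58.0% over the same length. The GC content was 76.0% for NOTCH1, 72.8% for NOTCH2, 78.0% for NOTCH3, 68.4% for JAG1 and 81.6% for JAG2. CpG dinucleotides numbered 33 in NOTCH1, 29 in NOTCH2, 28 in NOTCH3, 17 in JAG1 and 38 in JAG2. Scaled to base content, the observed over expected CpG ratio was 0.592 for JAG1, close to the median of all promoters (0.558), and between 0.795 and 0.941 for the other members. The core of the RBPJ site, TGGGAA, was searched on both strands in these upstream windows. It was found in 0 of the 5 members and in 20.8% of all promoters over the same length.

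Column totals ranged from 70280185 to 258014046 counts. The CUTLL1 shRenilla control was not the same column in every table. The column beside shJMJD3 (the larger control) was at least as high in every gene as the column beside shUTX (the smaller control), and their difference, here called the remainder, held 113619677 counts. Protein-coding genes made up 93.0 to 94.1% of counts in CEM, 66.9% in CUTLL1 shJMJD3, 79.0% in CUTLL1 shUTX, 72.2% in the larger control, 81.8% in the smaller control and 60.0% in the remainder. The targeted genes stood lower in their own hairpin columns: KDM6B at 10.9 CPM (counts per 1000000 counts of the column) with shJMJD3 against 18.8 in the larger control in CUTLL1, and at 52.2 against 206 in CEM; KDM6A at 19.3 with shUTX against 43.0 in the smaller control in CUTLL1, and at 51.5 against 136 in CEM. Summed T cell markers stood at 2148 to 3827 CPM in all columns. The B cell marker MS4A1 was at 0 in every column, whereas summed B cell markers reached 47.6 to 83.3 CPM in CEM, mostly CD79A, and at most 4.14 in CUTLL1. In these bulk samples fewer cells of a type and less RNA per cell cannot be told apart.

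NOTCH1, the receptor most tied to T-ALL, was the most abundant member in every column. Its level in CUTLL1 was 541 CPM with shJMJD3, 932 with shUTX, 915 in the larger control and 1162 in the smaller control. CEM columns held 284 CPM (shJMJD3), 418 CPM (shUTX) and 453 CPM (shRenilla). The CUTLL1 columns all stood above the CEM columns, and within each line the shJMJD3 column was the lowest. The remainder of the CUTLL1 control stood at 601 CPM. The antisense gene AL592301.1 overlaps NOTCH1, with 14 to 272 counts.

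NOTCH3, a receptor that is itself transcribed in response to NOTCH signaling in T cells, stood at 312 CPM with shJMJD3, 389 with shUTX, 375 in the larger and 446 in the smaller control of CUTLL1. In CEM its level was 55.8 CPM with shJMJD3, 37.8 with shUTX and 42.1 with shRenilla. The lines did not overlap. The shJMJD3 column was the lowest deposited column of CUTLL1, though the remainder was lower at 285 CPM, and the highest of CEM.

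NOTCH2, which is best known for its role in B cell subsets, had the opposite order of lines. It stood at 45.4 CPM with shJMJD3, 30.8 with shUTX, 35.0 in the larger and 34.9 in the smaller control of CUTLL1. In CEM the levels were 58.6 CPM with shJMJD3, 95.6 with shUTX and 80.1 with shRenilla. Every CEM column exceeded every CUTLL1 column. Reads of NOTCH2 can also fall on near-identical sequence in NOTCH2NL. In CUTLL1 NOTCH2NL received 1198 counts with shJMJD3, 135 with shUTX, 1140 in the larger control, 227 in the smaller and 913 in the remainder. In CEM it received 199 to 272 counts. NOTCH2 values are uncertain to that extent.

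The ligands were sparse. DLL1, a ligand that can support T cell commitment when presented by neighboring cells, had 98 counts with shJMJD3 and 37 with shUTX in CUTLL1. It had 94 in the larger control and 90 in the smaller control of that line. In CEM it had 34 counts with shJMJD3, 73 with shUTX and 122 with shRenilla. As CPM this was 0.363 to 0.623 in CUTLL1 and 0.484 to 1.17 in CEM, so the lines overlapped. DLL1 overlaps FAM120B on the opposite strand, and whether the counting used strand was not given in the sources used here.

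JAG1, a ligand of the Jagged class, had 238 counts with shJMJD3, 153 with shUTX, 305 in the larger and 247 in the smaller control of CUTLL1 (1.18 to 1.71 CPM). In CEM it had 48, 28 and 63 counts with shJMJD3, shUTX and shRenilla (0.395 to 0.683 CPM). All deposited CUTLL1 columns were above all CEM columns in CPM, whereas the remainder, at 0.510 CPM, was within the CEM range. JAG2, the other Jagged ligand, went the other way. It had 178, 187 and 242 counts in CEM with shJMJD3, shUTX and shRenilla (2.32 to 2.64 CPM), and 29, 6, 42 and 26 counts in CUTLL1 with shJMJD3, shUTX, the larger and the smaller control (0.0589 to 0.180 CPM). JAG2 shares its strand with the overlapping AL512356.1, which had 72 to 128 counts in CEM and at most 7 in CUTLL1.

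**Figure D1:**
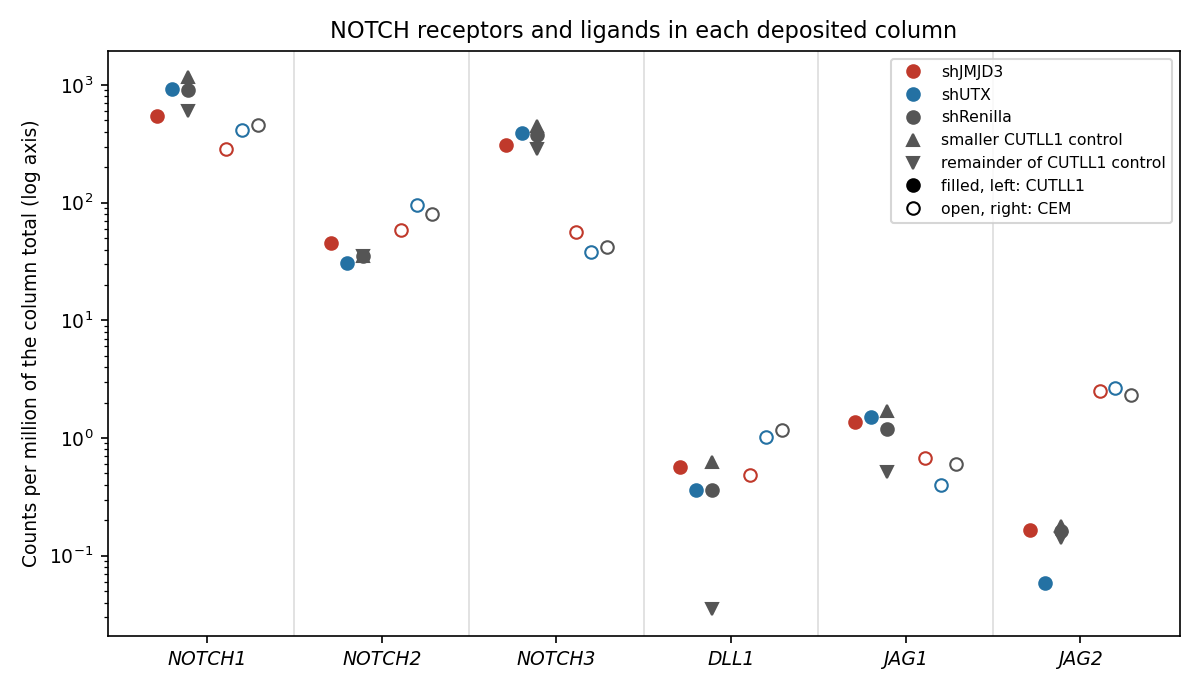
Level of each receptor and ligand in every count column, in CPM on a log axis. Filled points are CUTLL1 and open points CEM, 1 point per column, colored by hairpin; for the CUTLL1 control the circle is the larger column, the upward triangle the smaller column and the downward triangle the remainder. NOTCH1 was between 284 and 453 CPM in CEM and between 541 and 1162 CPM in the deposited CUTLL1 columns, and JAG2 was the ligand with the widest gap between the lines.

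To compare genes with each other, levels were divided by exon length, giving CPM per kilobase. NOTCH1 stood at 27.4 to 43.7 CPM per kilobase in CEM and at 52.2 to 112 in CUTLL1. Between 91.4 and 95.9% of 19065 protein-coding genes were below it in CEM, and between 97.4 and 98.9% in CUTLL1. NOTCH3 followed in CUTLL1 at 33.2 to 47.4 CPM per kilobase, above 95.2 to 96.2% of genes. In CEM NOTCH3 was at 4.03 to 5.94 CPM per kilobase and NOTCH2 at 3.49 to 5.69: NOTCH3 was the higher of the pair with shJMJD3, and NOTCH2 with shUTX and shRenilla. With the longest transcript in place of all exons, NOTCH2 stood at 7.04 and NOTCH3 at 4.86 with shRenilla in CEM, which widened the gap. All 3 ligands stayed at or under 0.413 CPM per kilobase in every column, above 23.0 to 41.2% of genes.

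The receptor make-up of the lines differed accordingly. Of the summed NOTCH1, NOTCH2 and NOTCH3 counts per kilobase, NOTCH1 provided 67.7% in the larger CUTLL1 control and 82.5% in the CEM control. The share of NOTCH3 was 30.7% in the larger CUTLL1 control and 8.48% in the CEM control, and that of NOTCH2 was 1.60% and 9.01%. With shJMJD3 the NOTCH1 share was the lowest of each line, 59.2% in CUTLL1 and 74.4% in CEM, and the NOTCH3 share the highest, 37.7% and 16.1%. Per count, without length, NOTCH3 made up 34.7% of receptor counts with shJMJD3 in CUTLL1 (exact Clopper-Pearson 95% interval 34.5 to 34.9%) against 28.3% in the larger control (28.2 to 28.5%). In CEM it made up 14.0% with shJMJD3 (13.6 to 14.4%) against 7.32% with shRenilla (7.12 to 7.54%). These intervals cover counting error only. The NOTCH1 to NOTCH3 count ratio, which no column scaling touches, was 1.74 with shJMJD3, 2.40 with shUTX, 2.44 in the larger and 2.61 in the smaller control of CUTLL1. The CEM ratios were 5.10 (shJMJD3), 11.1 (shUTX) and 10.8 (shRenilla). The remainder gave 2.11, between CUTLL1 shJMJD3 and the other CUTLL1 columns.

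**Figure D2:**
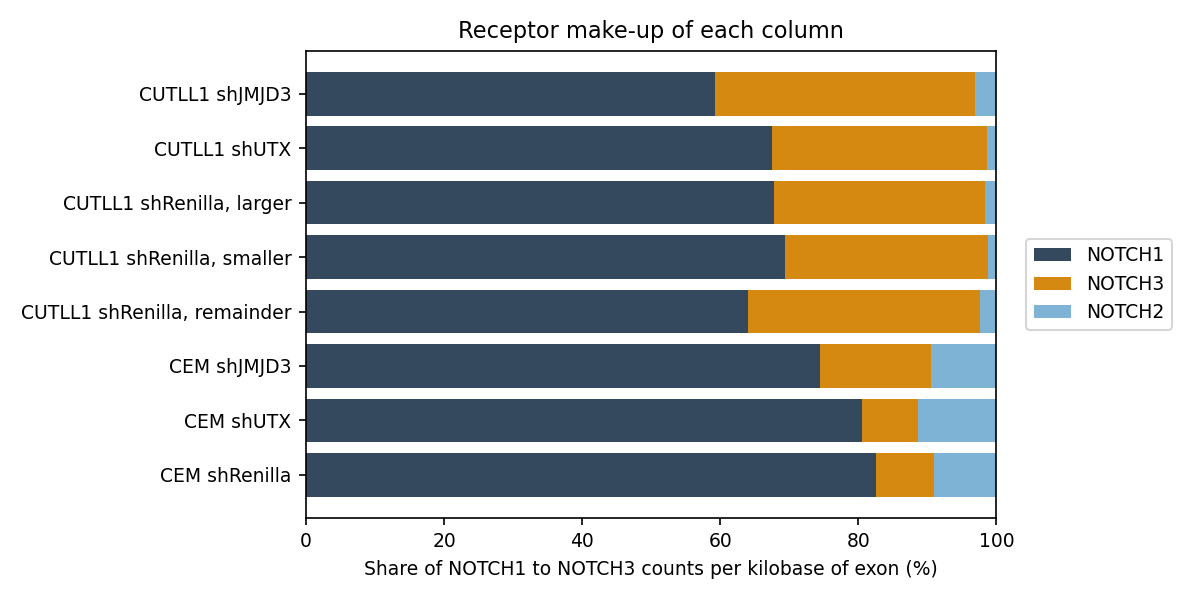
Share of NOTCH1, NOTCH2 and NOTCH3 in their summed counts per kilobase, in percent, for each count column of both lines. The NOTCH1 share was lowest with shJMJD3 in each line (59.2% in CUTLL1 and 74.4% in CEM), and the NOTCH3 share was at least 29.4% in all CUTLL1 columns and at or under 16.1% in CEM.

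Among ligand counts JAG2 was the leading member in CEM, with 68.5% of the 3 ligands' counts with shJMJD3, 64.9% with shUTX and 56.7% with shRenilla. JAG1 led in CUTLL1, with 65.2% with shJMJD3, 78.1% with shUTX and 69.2% in the larger control. Per kilobase the leader in CUTLL1 depended on the column: DLL1 made up 50.2% and JAG1 42.3% with shJMJD3, DLL1 47.7% and JAG1 45.4% in the smaller control, and DLL1 42.5% and JAG1 47.9% in the larger control. In CEM JAG2 and DLL1 were level per kilobase with shRenilla, at 45.9% each. JAG2 made up 53.3% and DLL1 41.2% per kilobase with shUTX, and 63.9% and 24.2% with shJMJD3. The DLL1 share of ligand counts in CEM was 13.1% with shJMJD3 (exact 95% interval 9.23 to 17.8%) and 28.6% with shRenilla (24.3 to 33.1%).

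The lines were compared in an edgeR quasi-likelihood fit over 6 columns, in which the 3 hairpins stand as the replicates of a line. Of the 6 members 4 were called at an adjusted p under 0.05, beside 36.8% of 24003 genes tested (19.0% higher and 17.8% lower in CUTLL1). With column totals in place of TMM scaling, 3501 genes were higher and 5883 lower, against 4559 and 4276 in the TMM fit. NOTCH3 was higher in CUTLL1 by 3.31 on the log2 scale (SE 0.27, edgeR adjusted p = 0.0027) and NOTCH1 by 1.34 (SE 0.20, adjusted p = 0.011). JAG1 was higher by 1.59 (SE 0.40, edgeR adjusted p = 0.036). JAG2 was lower in CUTLL1 at -4.02 (SE 0.52, edgeR adjusted p = 0.0076), the widest difference of the 6. NOTCH2, at -0.76 (SE 0.27, edgeR adjusted p = 0.080), and DLL1, at -0.70 (SE 0.52, adjusted p = 0.33), did not pass the threshold. All 6 differences kept their sign when any hairpin was left out. JAG1 missed the threshold without shUTX (edgeR adjusted p = 0.12) and without shRenilla (0.17), as did NOTCH1 without shRenilla (0.10), whereas NOTCH2 passed it without shJMJD3 (-1.04, adjusted p = 0.027). With column totals JAG1 missed it (edgeR adjusted p = 0.061) and NOTCH2 passed it (0.035). The protein-coding share of counts also differed between the lines, as given above, and its part in these differences was not tested.

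**Figure D3:**
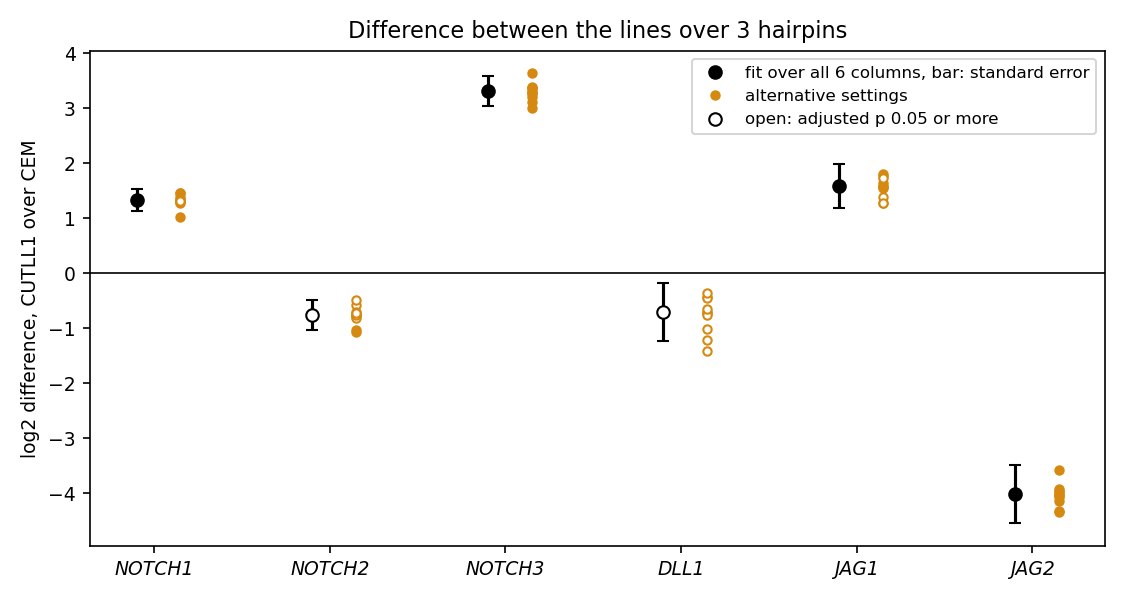
Log2 difference of each member between CUTLL1 and CEM (positive: higher in CUTLL1) in the fit over 6 columns, with the standard error as a bar (black), beside the values under the alternative settings (orange); open points have an adjusted p of 0.05 or more. NOTCH3 (3.31) and JAG2 (-4.02) lie farthest from 0 in opposite directions, and each member kept its sign under every setting plotted.

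The comparison of shJMJD3 with shRenilla addresses how these genes stood where KDM6B RNA was lowered, by 1.55-fold in CUTLL1 and 3.19-fold in CEM. NOTCH1 stood lower with shJMJD3 in both lines, at a TMM-scaled log2 ratio of -0.60 in CUTLL1 (95% counting interval -0.61 to -0.59) and -0.36 in CEM (-0.39 to -0.34). The other receptors took opposite directions in the 2 lines. NOTCH2 stood at 0.53 in CUTLL1 (0.49 to 0.57) and -0.14 in CEM (-0.20 to -0.09), and NOTCH3 at -0.11 in CUTLL1 (-0.13 to -0.10) and 0.72 in CEM (0.65 to 0.78). DLL1 was opposite too, at 0.76 in CUTLL1 (0.36 to 1.20) and -0.94 in CEM (-1.56 to -0.41). JAG1 stood at 0.36 in CUTLL1 (0.11 to 0.61) and 0.47 in CEM, where the interval spanned 0 (-0.09 to 1.05). JAG2 stood at 0.43 in CEM (0.15 to 0.72) and had under 50 counts in CUTLL1. Opposite directions with both intervals off 0 were thus found for 3 members, NOTCH2, NOTCH3 and DLL1, beside 23.0% of all genes with 50 counts in each line.

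Among genes with at least 50 counts in either column, 2 of 5 members were at least 1.5-fold apart in CUTLL1 (NOTCH1 lower, DLL1 higher), beside 8.63% of all such genes higher and 7.23% lower. In CEM 2 of 6 members were (NOTCH3 higher, DLL1 lower), beside 22.4% higher and 23.9% lower, so a share of this size was near that of all genes. With column totals the split of genes was 1200 higher and 2331 lower in CUTLL1 in place of 1707 and 1430, and 2360 higher and 6210 lower in CEM in place of 3803 and 4068. That scaling moved the median of all genes for shJMJD3 over shRenilla by -0.15 in CUTLL1 and -0.31 in CEM; no member's sign turned, NOTCH1 in CEM went to -0.67 and so passed the 1.5-fold minimum, and NOTCH3 in CEM went to 0.40 and no longer passed it. With TMM scaling no member passed the minimum in one direction in both CUTLL1 and CEM, beside 2.56% of genes higher and 2.47% lower. NOTCH1 did so under the other scalings: it stood at -0.76 in CUTLL1 and -0.67 in CEM with column totals, and at -0.65 and -0.69 scaled to protein-coding counts.

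In the fit across both lines 0 of 24003 genes (0%) passed in edgeR. Without adjustment 936 had a p under 0.05, and DESeq2 called 110, none of them a member. NOTCH1 stood at -0.48 over the lines (SE 0.24, edgeR adjusted p = 0.80), lower in 2 of 2 lines. The other members lay between -0.005 for DLL1 and 0.43 for JAG1, each within its SE or little beyond it. The fit rests on the spread between 2 lines with 2 residual degrees of freedom.

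**Figure D4:**
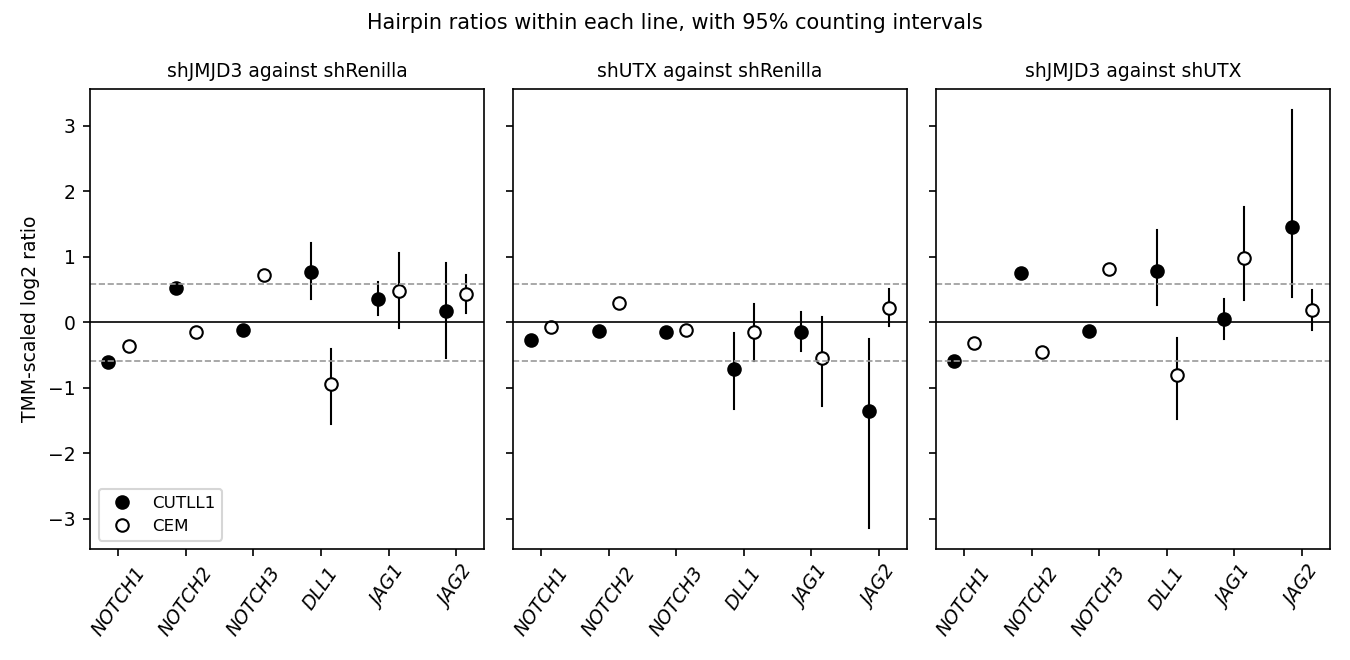
TMM-scaled log2 ratios of the 6 members for the 3 hairpin comparisons in CUTLL1 and CEM, with exact 95% counting intervals as bars and dashed lines at 1.5-fold. For shJMJD3 against shRenilla NOTCH1 lies under 0 in both lines (-0.60 and -0.36), whereas NOTCH2, NOTCH3 and DLL1 lie on opposite sides of 0 in the 2 lines.

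The CUTLL1 values depended on the control column. Against the larger control, the smaller control and the remainder, the shJMJD3 ratio of NOTCH1 was -0.60, -0.73 and -0.34, and that of NOTCH2 was 0.53, 0.75 and 0.18. NOTCH3 stood at -0.11, -0.14 and -0.06. DLL1 moved most: it stood at 0.76, 0.22 and 3.39, since the remainder held 4 of its counts and the smaller control 90. JAG1 stood at 0.36, 0.05 and 1.21. NOTCH1 was thus lower with shJMJD3 against every part of the control, and the sizes for DLL1 and JAG1 were set by which part was used. The control parts also differed from each other: the remainder over the smaller control gave -0.39 for NOTCH1, 0.56 for NOTCH2, -1.15 for JAG1 and -3.04 for DLL1. Summed over 5 stromal markers, mostly DCN, the level in CUTLL1 was 9.70 CPM with shJMJD3, 5.90 with shUTX, 3.81 in the larger control, 6.63 in the smaller control and 0.211 in the remainder. Like DLL1 it was lowest in the remainder. It was higher in CPM with shJMJD3 than in the smaller control. For the same 2 columns DLL1 stood at 0.562 and 0.623 CPM, and at 0.22 as a TMM-scaled log2 ratio. COL1A1, the other stromal marker with at least 50 counts, stood at -0.55 for shJMJD3 against the larger control. The part of these markers in the DLL1 values was not tested. Small RNA genes took 11.7% of counts with shJMJD3, 1.97% in the smaller control and 18.7% in the remainder, and their part in the ratios was not tested.

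**Figure D5:**
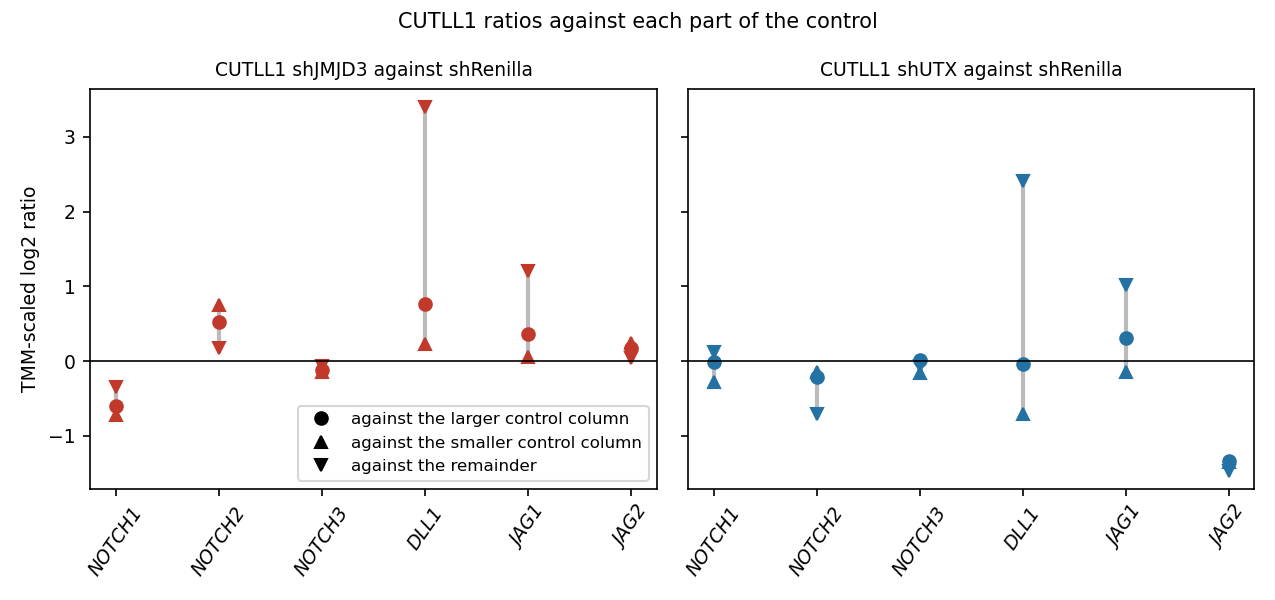
Log2 ratios of the members in CUTLL1 for shJMJD3 and shUTX against each part of the shRenilla control (circle, larger column; upward triangle, smaller column; downward triangle, remainder), with gray bars that span the 3 values. The shJMJD3 ratio of NOTCH1 lies between -0.73 and -0.34 for all parts, whereas that of DLL1 spans 0.22 to 3.39.

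The comparison of shUTX with shRenilla asks the same where KDM6A RNA was lowered, by 2.17-fold in CUTLL1 and 2.58-fold in CEM. Against the smaller control, the one deposited beside shUTX, all 3 receptors stood slightly lower in CUTLL1, at -0.28 for NOTCH1 (95% counting interval -0.29 to -0.27), -0.14 for NOTCH2 (-0.20 to -0.08) and -0.16 for NOTCH3 (-0.17 to -0.14). These values depended on the control part. Against the larger control and the remainder NOTCH1 stood at -0.01 and 0.12, NOTCH3 at 0.02 and -0.07, and NOTCH2 at -0.22 and -0.70, the last past the 1.5-fold minimum. JAG1 stood at -0.14 against the smaller control, 0.31 against the larger and 1.02 against the remainder. In CEM NOTCH1 stood at -0.08 (-0.10 to -0.06), NOTCH3 at -0.12 (-0.19 to -0.05) and NOTCH2 at 0.29 (0.24 to 0.34). DLL1 was the 1 member of 5 at least 1.5-fold apart in CUTLL1, at -0.71 (-1.33 to -0.17), beside 3.50% of genes higher and 2.27% lower. Against the larger control DLL1 stood at -0.03, so its size depended on the control part. Against the remainder it turned to 2.41, but from 37 against 4 counts, under the count minimum. In CEM 0 of 6 members were at least 1.5-fold apart, beside 3.32% higher and 4.05% lower; JAG1, from 28 counts with shUTX, stood at -0.55 (-1.27 to 0.09), and at -0.59 with column totals, just past the minimum. No member was so in both lines, beside 0.376% of genes higher and 0.165% lower. JAG2 in CUTLL1, at 6 against 26 counts, was under the count minimum.

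For shUTX against shRenilla across both lines 0 of 23112 genes (0%) passed in edgeR. Without adjustment 39 had a p under 0.05, and DESeq2 called 4, none a member. NOTCH1 stood at -0.18 (SE 0.21, edgeR adjusted p = 1.000), lower in 2 of 2 lines.

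The direct comparison of the hairpins, shJMJD3 against shUTX, does not use the counts of the control columns. NOTCH1 stood lower with shJMJD3 in both lines, at -0.60 in CUTLL1 (95% counting interval -0.61 to -0.58) and -0.31 in CEM (-0.34 to -0.29). NOTCH2 stood at 0.74 in CUTLL1 and -0.46 in CEM, and NOTCH3 at -0.13 in CUTLL1 and 0.81 in CEM. DLL1 stood at 0.79 in CUTLL1 (0.26 to 1.40) and -0.81 in CEM (-1.48 to -0.24). The opposite directions of NOTCH2, NOTCH3 and DLL1 seen against shRenilla were thus also present here; the shJMJD3 columns are shared by both comparisons. Such opposite directions, with both intervals off 0, were found in 33.1% of all genes for shJMJD3 against shUTX, and in 16.5% for shUTX against shRenilla, where NOTCH2 was the member concerned. JAG1 stood at 0.05 in CUTLL1 and JAG2 at 0.18 in CEM, and both turned sign with column totals (-0.14 and -0.06).

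In CUTLL1 3 of 5 members were at least 1.5-fold apart between shJMJD3 and shUTX (NOTCH1 lower, NOTCH2 and DLL1 higher), beside 17.3% of genes higher and 10.2% lower. The count was 2 with column totals, where NOTCH2 stood at 0.56, and 2 with protein-coding scaling, where NOTCH1 stood at -0.55. In CEM 2 of 5 were (NOTCH3 higher, DLL1 lower), beside 22.2% higher and 23.3% lower. With column totals the 2 were NOTCH2 and DLL1, both lower, since NOTCH3 stood at 0.56 and NOTCH2 at -0.71; protein-coding scaling gave 0.55 and -0.72. No member was so in the same direction in both lines, beside 3.39% higher and 3.84% lower. With column totals the split of genes in CUTLL1 was 2805 higher and 3892 lower, in place of 3156 and 1869. In CEM it was 2470 and 5410 in place of 3606 and 3786. The median of all genes moved by -0.19 in CUTLL1 and -0.25 in CEM. With TMM scaling that median was -0.12 in CUTLL1 and -0.01 in CEM, so this scaling did not center the CUTLL1 pair at 0. In CUTLL1 26.8% of genes lay at least as far from 0 as NOTCH1. In the fit across both lines 0 of 24003 genes (0%) passed in edgeR. Without adjustment 1945 had a p under 0.05, and DESeq2 called 287, none a member. With the smaller control among the columns, 1448 of 23112 genes had such an unadjusted p. NOTCH1 stood at -0.45 (SE 0.24, edgeR adjusted p = 0.63), lower in 2 of 2 lines.

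In the authors' deposited table of each comparison, which marks a gene at a p under 0.001, all 3 receptors were marked in all 6 comparisons. DLL1 was the sole ligand marked there, in CEM for shJMJD3 against shRenilla and against shUTX. The authors' deposited table marked 45.2% and 44.2% of genes in those 2 comparisons and 21.8% in CEM for shUTX against shRenilla. For CUTLL1 the authors' deposited table marked 34.4% for shJMJD3 against shRenilla, 43.3% for shJMJD3 against shUTX and 23.0% for shUTX against shRenilla. Such a p compares the reads of 2 columns, not conditions with replicates.

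The other genes of the pathway were read from fixed lists. Of 6 other receptors and ligands (NOTCH4, DLL3, DLL4, DLK1, DLK2 and DNER), 4 could be tested between the lines and 2 were higher in CUTLL1, NOTCH4 and DLL3. Of 12 direct target genes in T cells, 11 were called higher in CUTLL1 and none lower, with a median log2 difference of 4.69 beside 0.11 over all genes tested; the exception was HES1, at -0.68 (edgeR adjusted p = 0.23). Of 14 genes of receptor maturation and cleavage (fringe enzymes, ADAM proteases, gamma-secretase), 1 was higher (APH1A) and 2 lower (MFNG, NCSTN). Of 15 genes of endocytosis and turnover, 1 was higher (MIB1) and 5 lower (NUMB, CBL, DNM1, DNM2 and AAK1). Of 18 genes of the nuclear complex, HDAC1 was higher and 10 were lower, among them the co-repressor SPEN at -1.92 and the acetyltransferase CREBBP at -2.05. Beside these list counts, 19.0% of all genes tested were called higher in CUTLL1 and 17.8% lower.

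With shJMJD3 against shRenilla, 6 of 12 direct targets in CUTLL1 were at least 1.5-fold lower and 0 higher (median -0.51, all genes -0.00). Over all genes in CUTLL1, 7.23% were lower and 8.63% higher. The lower targets included NRARP at -1.25, HES5 at -1.19 and MYC at -0.60. These CUTLL1 values were against the larger control. Summed over the 12 targets, the level was 1334 CPM with shJMJD3 and 1974 in the larger control. It was 2395 CPM in the smaller control and 1439 in the remainder, so the size depended on the control part. The 1.5-fold counts of the lists were not repeated against the other parts. In CEM 7 of the 12 had 50 counts, with HES1, HES4 and DTX1 higher and PTCRA and IL7R lower (median -0.14, all genes -0.02). HES4 thus stood at -0.66 in CUTLL1 and 1.21 in CEM. Among maturation genes, 2 were higher and 0 lower of 13 in CUTLL1, and 2 higher and 4 lower of 14 in CEM. In CEM 22.4% of all genes were higher and 23.9% lower, so shares of this size in the CEM lists were near those of all genes. LFNG, a fringe enzyme that adds sugar to NOTCH receptors and alters their response to DLL and JAG ligands, was higher in both lines. It stood at 0.78 in CUTLL1 (97 against 92 counts) and 1.13 in CEM (66 against 54). Over all genes, 2.56% were at least 1.5-fold higher in both lines. Of the 92 LFNG counts in the larger CUTLL1 control, 34 lay in the smaller control, and its ratios against the other parts were not computed. The related MFNG stood at 2.43 in CUTLL1 and -0.44 in CEM. Nuclear complex genes were 1 higher (MAML3) and 0 lower of 18 in CUTLL1, and 2 higher (RBPJ, SNW1) and 5 lower of 17 in CEM, the latter including the histone acetyltransferases EP300 and CREBBP. In the endocytosis list EPN2 and DNM1 were higher in CUTLL1, and MIB1 and NEURL1B were higher and MIB2, NEURL1 and NEDD4 lower in CEM. DLL4 was lower in CUTLL1 and NOTCH4 and DLK2 were lower in CEM.

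With shUTX against shRenilla these lists showed few genes at least 1.5-fold apart. In CUTLL1 they were HEY2, lower, and LFNG, higher at 1.37 from 63 against 34 counts in the smaller control. In CEM they were PTCRA and MAML3, lower, and PSEN2, higher. Over all genes, 3.50% were higher and 2.27% lower in CUTLL1, and 3.32% higher and 4.05% lower in CEM. With shJMJD3 against shUTX, 6 of 11 direct targets were lower and 0 higher in CUTLL1 (median -0.65, all genes -0.12). Over all genes there, 10.2% were lower and 17.3% higher. In CEM 3 of 7 (HES1, HES4 and DTX1) were higher and 0 lower (median 0.36, all genes -0.01). Over all genes in CEM, 22.2% were higher and 23.3% lower. TLE1, a co-repressor of the Groucho family, was lower with shJMJD3 than with shUTX in both lines, at -0.72 in CUTLL1 and -0.85 in CEM. Over all genes, 3.84% were at least 1.5-fold lower in both lines. Genes of these lists named for a single line or for the line comparison were chosen after their values were seen.

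Genes whose profile was most like that of a receptor were sought among 11144 protein-coding genes with at least 50 counts in all 6 columns, by the root mean square difference of centered log2 CPM. For NOTCH1 these were KIAA1984 (difference 0.0896) and PARD6A (0.0949), for NOTCH2 RPS6KL1 (0.131) and PPIP5K1 (0.135), and for NOTCH3 CARNS1 (0.185) and EIF4A1 (0.218). In likeness to NOTCH1, NOTCH3 took place 8095 and NOTCH2 place 8526 of these genes. In likeness to NOTCH3, NOTCH1 took place 580 and NOTCH2 place 8655, and in likeness to NOTCH2, NOTCH1 took place 10012 and NOTCH3 place 10975. Over the same 6 columns Pearson's r was 0.83 between NOTCH1 and NOTCH3 and -0.94 between NOTCH2 and NOTCH3, as a description of columns that fall into 2 lines. DLL1, JAG1 and JAG2 had under 50 counts in a column and were not compared in this way.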

How the data were processed

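RNA-seq libraries (dUTP stranded, from polyA+ or Ribominus-treated RNA, not assigned per sample) were sequenced as 50-base single reads, per the labels' protocols. CASAVA, TopHat and hg19 are named in the submitters' processing notes; the read counter and annotation, and any use of strand, were not given in the sources used here. In the 6 deposited tables there are, per the file headers, gene counts for 2 columns, and log2 values, z-scores, p-values and q-values of the authors' comparison. Each z-score was deposited by the authors as the score of a test between those 2 columns, per the file headers. Replicates are pooled per hairpin and line, so p-values here measure the spread between lines or hairpins, not between cultures. The deposited counts were used, and of the other columns only the mark of the authors' p-value is reported here.

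Rows listed without counts in either column were read as 0. Levels are CPM, counts per 1000000 counts of the column. Counts were fitted with edgeR 4.0.16 (R 4.3.3; TMM, filterByExpr, quasi-likelihood F test, line and hairpin as terms, Benjamini-Hochberg over all genes tested, called under 0.05) and alternatively with DESeq2 1.42.0; 2 residual degrees of freedom remained. Within a line, log2 ratios used TMM scaling, a prior count of 2, at least 50 counts in either column and a 1.5-fold minimum, with exact binomial 95% intervals (scipy 1.17.1) that cover counting error only. Exon lengths and biotypes came from GENCODE 29, on another assembly. The edgeR fits were run on simulated counts in which a hairpin effect was the same in both lines. Many genes here differ from that setting, so the simulation does not measure how the fits perform on these data. Members, pathway genes past the 1.5-fold minimum one way in CUTLL1 and CEM alike, and the 2 genes most like each receptor were named by rule; the members and lists were chosen with earlier results of these data known. Alternatives were other scalings, filters, prior counts, control columns, protein-coding genes only, another gene length and each hairpin left out.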

Additional observations from a re-analysis of the deposited data

Results flagged for a closer look

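For 3 members a hairpin ratio had opposite directions in the 2 lines, with the 95% counting intervals of both lines off 0. The same was so for 23.0% of all genes with 50 counts in each line for shJMJD3 against shRenilla, 33.1% for shJMJD3 against shUTX and 16.5% for shUTX against shRenilla. The differences below are the CUTLL1 log2 ratio minus the CEM log2 ratio. With 1 column per hairpin and line none of these differences was tested.

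DLL1 differed by 1.70 for shJMJD3 against shRenilla and by 1.60 for shJMJD3 against shUTX, higher in CUTLL1 and lower in CEM, from 34 to 122 counts a column. NOTCH2 differed by 0.67 for shJMJD3 against shRenilla, by 1.21 for shJMJD3 against shUTX and by -0.43 for shUTX against shRenilla. Reads shared with NOTCH2NL leave these NOTCH2 values uncertain. NOTCH3 differed by -0.83 for shJMJD3 against shRenilla and by -0.94 for shJMJD3 against shUTX, lower in CUTLL1 and higher in CEM.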

How the results depend on the processing

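No paired analysis was possible because the deposited columns pool the replicates and carry no replicate number, and for the same reason no single replicate could be left out. With a minimum of 10 counts, 2 members were at least 1.5-fold apart for shUTX against shRenilla in CUTLL1, with the larger control 0 and with the remainder 2; in CEM it was 1 member with column totals and 1 with protein-coding scaling. Genes called across lines numbered 110 by DESeq2 for shJMJD3 against shRenilla and 4 for shUTX against shRenilla. For shJMJD3 against shUTX they numbered 287 by DESeq2, 6 with column totals and 55 without a filter. The line comparison without shRenilla called 2004 genes and 2 members. The direction turned for DLL1 for shUTX against shRenilla in CUTLL1 with the remainder (2.41). Members under 1.5-fold there turned too: NOTCH1 with the remainder (0.12), NOTCH3 with the larger control (0.02) and JAG1 with both (0.31 and 1.02). Across lines DLL1 turned for shJMJD3 against shRenilla with DESeq2 size factors (0.014), by DESeq2 (0.013) and with the remainder (1.05). For shUTX against shRenilla with the remainder NOTCH1 (0.021), NOTCH2 (-0.15), DLL1 (0.69) and JAG1 (0.25) turned. For shJMJD3 against shUTX with column totals NOTCH2 (-0.060) and DLL1 (-0.12) turned. The cause was not tested, except that fewer columns enter the fit without shRenilla. The remainder in the fits across lines, protein-coding genes only, protein-coding scaling and the longest transcript were alternatives chosen after seeing the data. Depth limited the ligands, whose columns held 6 to 305 counts, more than the receptors. A fit without a line has no residual degrees of freedom and was not run.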
